A study of Homo sapiens with 6 samples.

Results

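The long noncoding RNAs with LINC or antisense names that were expressed in MCF10A cells were examined after depletion of PAX9. MCF10A is an established, non-tumorigenic line of human breast epithelial cells. The cells were transfected with siRNAs against PAX9 (siPAX9) or with a non-targeting control (siNT), each at 30 nM for 72 hours, with 3 samples in each of the 2 groups. Both groups were grown in the same medium, and the labels name no other difference between them. Poly(A)+ RNA was sequenced, and the deposited table gives 1 FPKM (a level corrected for transcript length and for sequencing depth) per locus and group, made from the 3 samples of the group together. No value per sample is in the table. No error can therefore be given for any level or difference below, and none was tested here. The table's own columns of fold changes and p-values, which come from the authors' comparison of the samples, were not used. A difference is called when it reached 2-fold (1 on the log2 scale).

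The members were chosen by name and by level. A locus was taken when its only symbol began with LINC and a number or ended in -AS and a digit, EPB41L4A-AS1 excepted, and when the larger of its 2 FPKM was at least 1. Of the 41656 loci in the table, 26802 carried a single symbol, 1996 of these matched by name, and 352 passed the level. The 352 members are 101 LINC loci and 251 antisense loci, with 344 distinct symbols. Of the 1644 loci left out by level, 828 were listed at 0 in both groups. The members nearest above the limit were CCNT2-AS1 (0.886 FPKM in siNT and 1.00 in siPAX9), EGFR-AS1, AGBL1-AS1, SEMA6A-AS1 and LINC01093 (0.504 and 1.02). The loci nearest below it were MLK7-AS1 (0.996 and 0.576), MDC1-AS1, SAPCD1-AS1, NDUFB2-AS1 and STX18-AS1 (0.757 and 0.962). Since the higher group decided, the 69 members under 1 FPKM in siNT had to be higher in siPAX9 and the 31 members under 1 FPKM in siPAX9 had to be lower, which leaves 252 members at 1 FPKM or more in both groups.

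Long noncoding RNAs are transcribed by RNA polymerase II, capped and often spliced and polyadenylated, but carry no long reading frame. Those named LINC mostly lie between coding genes. Those named for a gene with -AS are read from the opposite strand of that gene or start close to its promoter, and some regulate it through chromatin, through transcriptional interference or by pairing with its mRNA. Most are present at few copies per cell, and the unspliced or unstable ones are removed by the nuclear RNA exosome. PAX9 is a paired box transcription factor of RNA polymerase II that is needed for the development of teeth, palate and thymus.

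PAX9 itself was at 2.80 FPKM in siNT and 0.325 FPKM in siPAX9. The only member in its locus on chromosome 14 (hg19, 37126773 to 37642998) is SLC25A21-AS1, at 1.08 FPKM in siNT and 0.919 in siPAX9. Of the basal breast markers, 7 of 8 had a locus of their own and all 7 were expressed in both groups and within 2-fold, 4 higher and 3 lower in siPAX9. KRT5, a basal keratin, was at 1558 and 1807 FPKM, and TP63, the p63 factor of basal cells, at 35.4 and 25.3. Of the markers of other cells, DCN (5.85 and 37.9 FPKM), CD14 (14.4 and 56.5) and KDR (0.798 and 1.94) were higher in siPAX9. The other fibroblast, blood and endothelial markers with a locus, among them COL1A2, PTPRC, CD3E and VWF, were under 0.1 FPKM in both groups. The 5 fibroblast markers with a locus summed to 5.95 FPKM in siNT and 38.1 in siPAX9, and the 5 blood markers to 14.5 and 56.6. Of the 6 luminal markers, 4 were expressed, 2 higher and 2 lower in siPAX9, with KRT8 at 51.7 and 58.7 FPKM, KRT18 at 212.0 and 119.0, EPCAM at 34.3 and 16.7, and GATA3 at 6.19 and 7.56. The part of these markers in the results was not tested. In bulk RNA, fewer cells that make a transcript cannot be told apart from less of it per cell.

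The promoters of 5 members with large differences are shown first, since they are the sequence in which motifs were looked for. The FPKM of a locus is not a measure of 1 start. They are from RefSeq on GRCh38.p14, whereas all other coordinates are hg19, and each runs from 250 bases before to 50 bases after the start. Capitals mark exact matches on either strand to TGAGTCA (the AP-1 sequence), CCAAT (the CCAAT box), CACGTG (an E-box), TATAAA (the TATA box) or GCGTGAC (a core of PAX binding sequences). None of these motifs overlap in the promoters shown.
LINC00152 (lower in siPAX9; chr2:87455177-87455476, plus strand): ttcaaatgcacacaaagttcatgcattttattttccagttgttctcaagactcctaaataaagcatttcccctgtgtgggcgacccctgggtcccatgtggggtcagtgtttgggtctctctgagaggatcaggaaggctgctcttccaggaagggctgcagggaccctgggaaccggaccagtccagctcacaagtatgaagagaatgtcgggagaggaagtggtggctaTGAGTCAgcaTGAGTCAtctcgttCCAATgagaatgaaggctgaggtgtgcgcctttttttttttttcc
SLCO4A1-AS1 (lower in siPAX9; chr20:62666572-62666871, minus strand): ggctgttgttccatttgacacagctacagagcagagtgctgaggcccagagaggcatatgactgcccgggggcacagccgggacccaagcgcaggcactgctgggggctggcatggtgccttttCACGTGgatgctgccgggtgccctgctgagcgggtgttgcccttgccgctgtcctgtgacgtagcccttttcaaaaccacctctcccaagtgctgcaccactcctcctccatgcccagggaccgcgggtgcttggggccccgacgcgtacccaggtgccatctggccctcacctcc
LINC01133 (higher in siPAX9; chr1:159960974-159961273, plus strand): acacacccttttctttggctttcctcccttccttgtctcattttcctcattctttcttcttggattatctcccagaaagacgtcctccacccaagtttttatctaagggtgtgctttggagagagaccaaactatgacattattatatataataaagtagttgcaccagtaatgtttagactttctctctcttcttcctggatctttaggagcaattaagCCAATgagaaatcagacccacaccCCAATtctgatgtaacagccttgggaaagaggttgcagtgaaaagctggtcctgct
LINC01468, upstream RefSeq start (higher in siPAX9; chr10:52470484-52470783, minus strand): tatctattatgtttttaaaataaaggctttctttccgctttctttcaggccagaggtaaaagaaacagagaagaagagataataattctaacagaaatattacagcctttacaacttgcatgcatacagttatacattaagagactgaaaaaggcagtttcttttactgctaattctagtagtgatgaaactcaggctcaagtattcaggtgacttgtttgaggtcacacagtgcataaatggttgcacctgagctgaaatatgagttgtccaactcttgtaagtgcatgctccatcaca
LINC01468, downstream RefSeq start (chr10:52455223-52455522, minus strand): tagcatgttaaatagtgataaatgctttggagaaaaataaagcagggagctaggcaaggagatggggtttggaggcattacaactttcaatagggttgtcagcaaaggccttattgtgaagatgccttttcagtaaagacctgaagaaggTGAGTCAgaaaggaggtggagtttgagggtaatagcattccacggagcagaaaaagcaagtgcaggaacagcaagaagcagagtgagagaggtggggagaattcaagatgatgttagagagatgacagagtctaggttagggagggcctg
OVOL1-AS1 (higher in siPAX9; chr11:65790819-65791118, minus strand): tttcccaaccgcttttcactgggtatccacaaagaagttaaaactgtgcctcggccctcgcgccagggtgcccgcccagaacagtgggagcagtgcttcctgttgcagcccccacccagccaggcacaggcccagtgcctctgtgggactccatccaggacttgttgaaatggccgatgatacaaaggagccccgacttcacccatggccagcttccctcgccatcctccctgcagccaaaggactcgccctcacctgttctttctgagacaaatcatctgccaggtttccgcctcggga

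The LINC00152 promoter holds TGAGTCA at 19 and again at 9 bases before the start. Of the 2 LINC01468 promoters, the upstream one holds none of the 5 motifs and the downstream one holds TGAGTCA at 100 bases before the start. LINC01133 has CCAAT at 30 and at 6 bases before the start, SLCO4A1-AS1 has CACGTG at 126 bases before it, and OVOL1-AS1 has none of the 5. RefSeq promoters were found for 253 of 333 noncoding member symbols, 297 promoters in all. Of these, 7.74% hold TGAGTCA, compared with 4.95% of all 35116 promoters. It was in 3 of 28 promoters of lower members, 2 of 50 of higher members and 18 of 219 of members within 2-fold. A symbol with several rows was counted by its lowest log2 difference. The PAX core was in 2.69% of the members' promoters and in 2.52% of all promoters. It was in 1 of the 28, 2 of the 50 and 5 of the 219. CCAAT was in 33.0% of the members' promoters and 34.6% of all, CACGTG in 9.76% and 7.26%, and TATAAA in 8.42% and 11.5%. A match describes these letters in this window and says nothing of binding.

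Of the 352 members, 31 were lower in siPAX9 by 2-fold or more (8.81%), 51 were higher by 2-fold or more (14.5%) and 270 lay within 2-fold. Among all 12328 single-symbol loci that reached the same level, members included, 7.31% were lower and 7.77% were higher by 2-fold or more. Of the 51 higher members, 35 were under 1 FPKM in siNT and were admitted by their siPAX9 level alone, and 19 of the 31 lower members were admitted by their siNT level alone. Among the 252 members at 1 FPKM or more in both groups, 12 were lower (4.76%) and 16 were higher (6.35%) by 2-fold or more, against 5.84% and 4.09% of all loci at that level in both groups. Without regard to size, 136 members (38.6%) were lower in siPAX9, against 54.6% of all loci. The median log2 difference, siPAX9 over siNT, was 0.20 over the members and -0.06 over all loci. Both kinds of member showed it, with a median of 0.24 for LINC loci and 0.18 for antisense loci, but 24 of the 101 LINC loci (23.8%) were higher by 2-fold or more compared with 27 of the 251 antisense loci (10.8%). Of the 24 LINC loci, 8 were at 1 FPKM or more in siNT. All 3 member loci that are second copies in the pseudoautosomal region are among the 51, and 2 of them are among those 8. Without them 48 of 349 members (13.8%) and 22 of 99 LINC loci (22.2%) were higher by 2-fold or more.

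**Figure D1:**
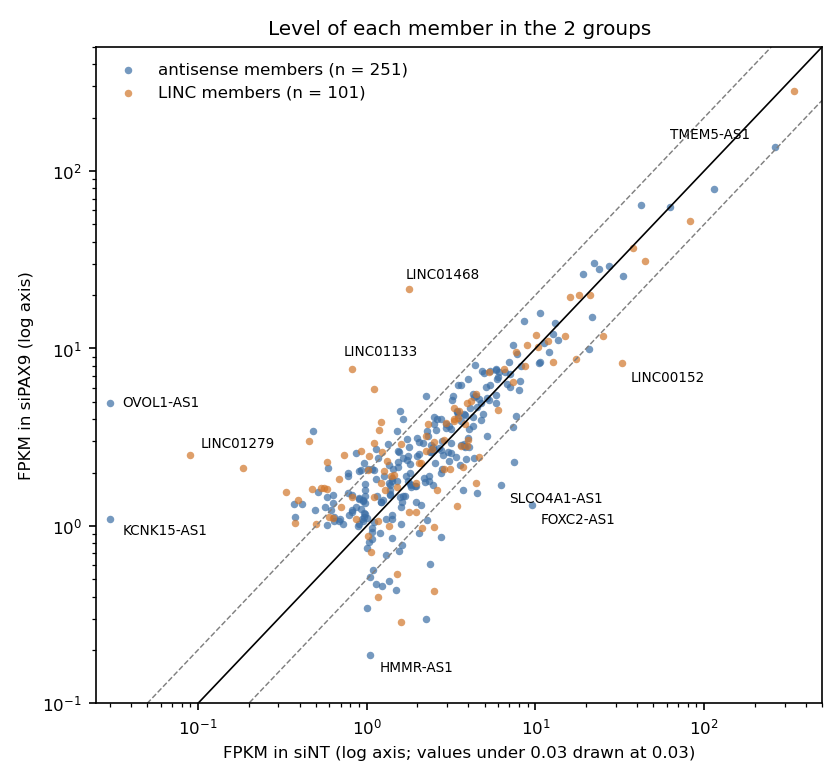
Each point is 1 member, with its FPKM in siNT on the x axis and in siPAX9 on the y axis (log axes, values under 0.03 drawn at 0.03), coloured by LINC (n = 101) or antisense (n = 251). The solid line marks equal levels and the dashed lines 2-fold, and 51 members lie on or above the upper dashed line and 31 on or below the lower one.

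The level of a transcript went with its direction across the whole table, so the members were set beside loci of like level. Members at 1 to 2 FPKM in the higher group were lower by 2-fold or more in 12 of 123 (9.76%) and higher in 21 (17.1%), against 9.52% and 20.1% of all loci of that range. At 2 to 5 FPKM the members' counts were 12 and 26 of 141 (8.51% and 18.4%), against 9.69% and 12.9%. At 5 to 10 FPKM they were 4 and 3 of 50 (8.0% and 6.0%), against 7.03% and 6.71%. At 10 FPKM or more they were 3 and 1 of 38 (7.89% and 2.63%), against 6.28% and 4.43%. The share of higher members was therefore above that of all loci in 1 of the 4 ranges, from 2 to 5 FPKM.

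**Figure D2:**
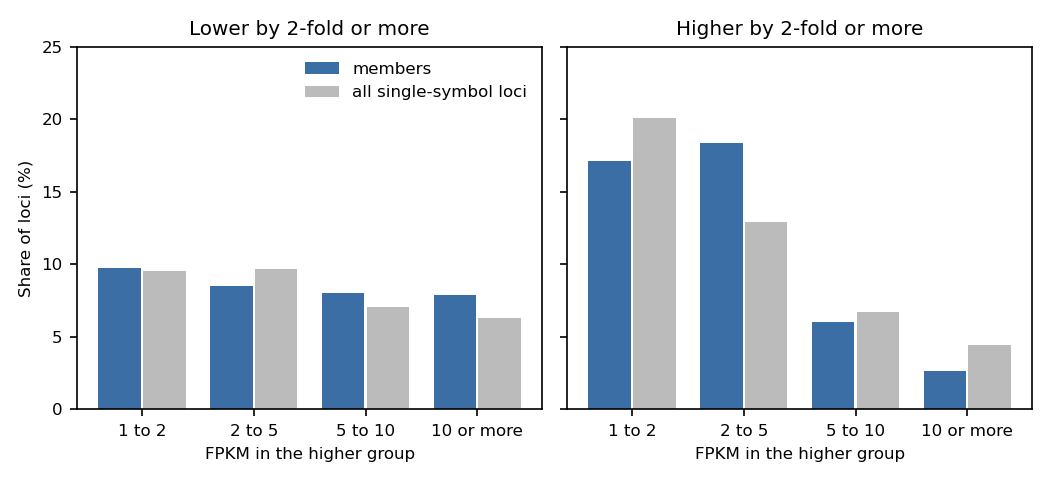
Bars give the share of loci (%) that were lower (left) or higher (right) in siPAX9 by 2-fold or more, by FPKM in the higher group, for the members and for all single-symbol loci. The shares of higher loci fall with level in both sets from 2 FPKM upward, and the members stand above all loci at 2 to 5 FPKM (18.4% and 12.9%).

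Any lower level in siPAX9 was seen in 35.8% of members at 1 to 2 FPKM (all loci, 40.9%), 36.2% at 2 to 5 FPKM (all loci, 47.1%) and 34.0% at 5 to 10 FPKM (all loci, 50.9%). At 10 FPKM or more, 63.2% of members and 60.8% of all loci were lower. The median log2 difference of members was 0.25, 0.24, 0.24 and -0.08 in the 4 ranges from low to high. For protein-coding loci outside the naming rule it was 0.13, 0.02, -0.03 and -0.13. Another 165 loci that RefSeq classes as long noncoding RNA, but whose names lie outside the rule, had medians of 0.30, 0.27, 0.17 and -0.24. The members and the other long noncoding loci thus lay on the same side of the coding loci below 10 FPKM. At 1 to 2 FPKM, however, the minimum itself fixed the direction of many members, as 55 reached it in siPAX9 alone and 24 in siNT alone. Among loci at 1 FPKM or more in both groups, 41.7% of members and 56.5% of all loci were lower. The median log2 differences there were 0.15 and -0.08. The spread within each set was wide, from -0.34 to 0.70 between the quartiles for members at 2 to 5 FPKM, and no error between samples can be set beside it.

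**Figure D3:**
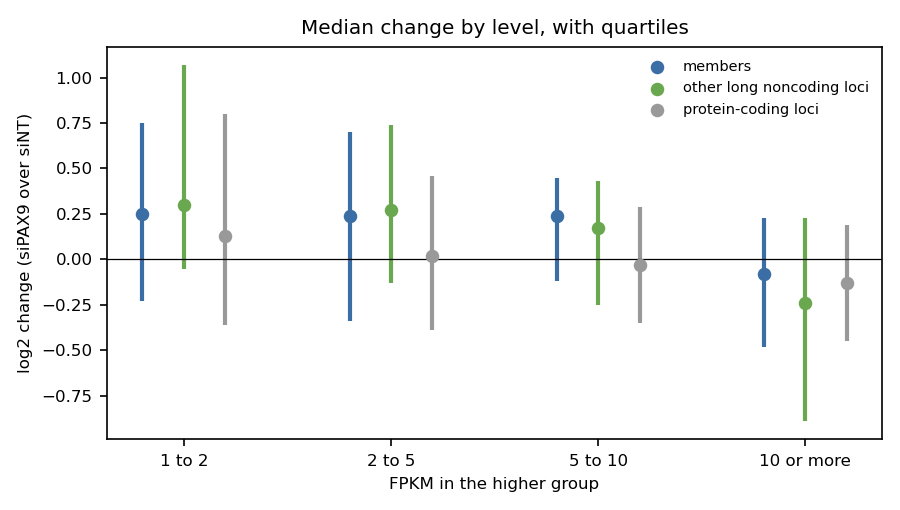
Points give the median log2 difference (siPAX9 over siNT) and lines the quartiles, by FPKM in the higher group, for members, for other long noncoding loci and for protein-coding loci. Below 10 FPKM the medians of the members (0.24 to 0.25) lie above those of the protein-coding loci (-0.03 to 0.13).

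The summed level moved the other way, because few members make up much of it. The FPKM of all members added up to 2235 in siNT and 2051 in siPAX9. The 10 loci with the highest level held 47.1% of the siNT sum and went from 1053 to 777.0, while the other 342 went from 1182 to 1274. First among them was LINC01420 on chromosome X (56755691 to 56844883), which RefSeq now names NBDY for a small protein that dissociates P-bodies. It has 4 rows in the table at the same locus, which summed to 398.0 FPKM in siNT and 333.0 in siPAX9, and 342.0 and 281.0 of this came from 1 row. TMEM5-AS1 on chromosome 12 was at 262.0 FPKM in siNT and 136.0 in siPAX9. Its sense gene TMEM5 (now RXYLT1, a xylosyltransferase that acts on dystroglycan) was at 17.8 and 9.35 FPKM, and the log2 differences were -0.95 for TMEM5-AS1 and -0.93 for TMEM5. An exon of TMEM5-AS1 holds PABPC1P4, a processed copy of PABPC1, and reads of similar copies may be shared. TAPT1-AS1 was at 114.0 and 78.7 FPKM and TPT1-AS1 at 33.1 and 25.6. FBXO22-AS1 was higher in siPAX9, at 42.1 and 64.7 FPKM.

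Some loci with LINC or antisense names have since been found to encode small proteins. Of the 4 of 5 listed names that had a locus, 3 were expressed, and each was lower in siPAX9 within 2-fold. LINC00493 (SMIM26, a mitochondrial small protein) was at 82.9 FPKM in siNT and 52.2 in siPAX9. LINC00998 (SMIM30) was at 44.9 and 31.2 FPKM. LINC00116 (MTLN, mitoregulin, of the inner mitochondrial membrane) was at 6.04 and 4.51 FPKM. RefSeq classes 14 member loci as protein-coding, the 4 rows of LINC01420 among them, and 11 of the 14 (78.6%) had a lower level in siPAX9. Their median log2 difference was -0.27 and their median level in the higher group 13.5 FPKM. Of the protein-coding loci outside the rule at 10 FPKM or more, 61.3% were lower, with a median of -0.13.

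The largest decreases by ratio were those of SEPT4-AS1, FOXC2-AS1, 1 row of LINC00847, HMMR-AS1, LINC00341, LINC00152, LMO7-AS1, SLCO4A1-AS1, GLTSCR2-AS1 and DSG2-AS1, with log2 differences from -2.93 to -1.70. Among these, LINC00152 was the most abundant. It lies on chromosome 2 (87754974 to 87821030), is now named CYTOR for its link to the cytoskeleton, and was at 32.6 FPKM in siNT and 8.26 in siPAX9, a 3.95-fold lower level (log2 difference -1.98). Its promoter with the paired TGAGTCA matches is printed above. FOXC2-AS1 on chromosome 16 was at 9.57 and 1.31 FPKM. DSG2-AS1 on chromosome 18 was at 7.46 and 2.29 FPKM, and SLCO4A1-AS1 on chromosome 20 at 6.22 and 1.71 FPKM.

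The remaining large decreases concerned loci with less than 3 FPKM in siNT. SEPT4-AS1 was at 2.26 FPKM in siNT and 0.298 in siPAX9, LMO7-AS1 at 2.38 and 0.610, LINC00341 at 1.59 and 0.288, GLTSCR2-AS1 at 1.5 and 0.437, and HMMR-AS1 at 1.04 and 0.187. With 1 added to each FPKM their log2 differences were between -1.33 and -0.78. LINC00341 lies 4.69 kb from the locus of SYNE3, the nuclear envelope protein nesprin-3, and RefSeq lists the name as a synonym of SYNE3. SYNE3 was at 2.26 and 0.579 FPKM. SEPT4, a septin and the sense gene of SEPT4-AS1, was under the limit, at 0.859 and 0.179 FPKM. LINC00847 on chromosome 5 has 2 rows at the same position with opposite differences, 2.51 to 0.429 FPKM and 0.333 to 1.55 FPKM. Added together they were at 2.84 and 1.98 FPKM, and the split of reads between them is uncertain.

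**Figure D4:**
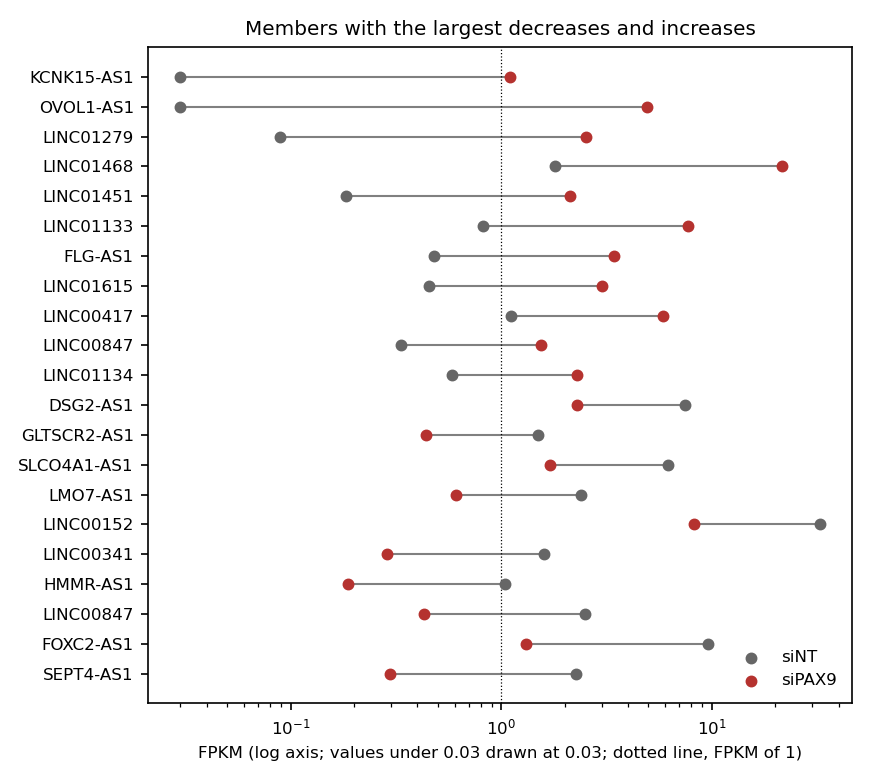
FPKM in siNT (grey) and siPAX9 (red) on a log axis for the 10 members with the largest decreases and for 11 with the largest increases, OVOL1-AS1 and KCNK15-AS1 included (drawn at 0.03 in siNT). The dotted line marks 1 FPKM, and LINC00152 (32.6 in siNT) and LINC01468 (21.5 in siPAX9) reach the highest levels shown.

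Most of the largest increases were found at loci under 1 FPKM in siNT. LINC01468 and LINC00417 were at 1 FPKM or more in both groups. LINC01468 on chromosome 10 (54210637 to 54230293), now LNCAROD for its activating effect on DKK1, was at 1.79 FPKM in siNT and 21.5 in siPAX9, 12.0-fold higher (log2 difference 3.59). DKK1, a secreted antagonist of Wnt signalling, lies 133.0 kb away and was at 1.65 and 54.7 FPKM. LINC01133 on chromosome 1 was at 0.823 and 7.67 FPKM. LINC01279 was at 0.0894 and 2.52 FPKM, 2.42 kb from CCDC80, of which RefSeq lists it as a synonym. CCDC80, a protein of the extracellular matrix, was at 0.475 and 16.0 FPKM. LINC01451 was at 0.184 and 2.11 FPKM, LINC01615 at 0.453 and 3.02, LINC00417 at 1.11 and 5.88, and LINC01134 at 0.583 and 2.28.

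OVOL1-AS1 on chromosome 11 was listed at 0 FPKM in siNT and at 4.92 in siPAX9. It was the only member listed at 0 in either group. OVOL1, a zinc finger factor that restrains proliferation of epithelial progenitors, was at 0.0497 and 4.02 FPKM. FLG-AS1 on chromosome 1 (now CCDST) was at 0.478 and 3.42 FPKM, but FLG (filaggrin, of the cornified layer) was below 1 FPKM in both groups, at 0.13 in siPAX9. In the annotation FLG-AS1 also overlaps HRNR, a filaggrin-like gene on the opposite strand, which was at 0.756 and 1.99 FPKM. KCNK15-AS1 on chromosome 20 was listed at 7.39e-06 FPKM in siNT and 1.10 in siPAX9, and no ratio is given for it. Its start lies 156 bases from that of KCNK15, a potassium channel gene that was at 0.158 and 4.53 FPKM. TINCR, a differentiation-induced RNA whose name is outside the rule, was at 0.253 and 5.69 FPKM.

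The antisense members were compared with their sense genes, since most of these pairs share a stretch of DNA. Of the 251 antisense members, 204 had a sense gene with a locus of its own and at least 1 FPKM in the higher group. ASMTL-AS1 and ASMTL form 2 of these pairs, as both are listed on X and on Y in the pseudoautosomal region. In siNT the sense gene was at the higher level in 178 pairs, and the median ratio of sense to antisense FPKM was 5.47. Both transcripts were higher in siPAX9 in 73 pairs and both were lower in 55. In 51 pairs the antisense member was higher and the sense gene lower, and in 25 pairs the reverse held. The direction was thus shared in 128 of 204 pairs (62.7%). Whether counting used the strand of the reads is not stated in the sources used here, so in the 162 pairs whose gene bodies overlap, reads may have been shared. In those the direction was shared in 103 (63.6%), and in the 36 pairs with gene bodies apart, in 21 (58.3%). Across 202 pairs, without OVOL1-AS1 (listed at 0 in siNT) and KCNK15-AS1 (near 0 in siNT), Spearman's rho of the log2 differences was 0.39, and across the 36 pairs apart it was 0.48. The pairs share the same samples and the same scaling, and the rho describes the pairs only.

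Of the antisense members past 2-fold, 14 of the 16 lower ones and 15 of the 19 higher ones had a sense gene in the same direction, which often differed by less. Over all 204 pairs 52.0% of the sense genes were lower and 48.0% higher, and over all loci 54.6% were lower. Of the 16 lower members 9 were under 1 FPKM in siPAX9, and of the 19 higher ones 14 were under 1 FPKM in siNT, so these met the minimum through 1 group alone. At 1 FPKM or more in both groups, the direction was shared by 7 of 7 lower and 5 of 5 higher members. The gene bodies of these pairs overlap, or the pair shares a listed locus (HIF1A-AS2 and PCNA-AS1, not placed), so reads may have been shared. DSG2 is counted as sharing the direction of DSG2-AS1 at a log2 difference of -0.02. Among all antisense members past 2-fold in a pair, RNF139-AS1 alone was placed apart from its sense gene. Of the 16 antisense members lower by 2-fold or more in a pair, 7 had a sense gene that was too, 8 had a sense gene within 2-fold, and 1 had a sense gene higher by 2-fold. Of the 19 higher members, 4 had a sense gene that was higher by 2-fold, 15 had one within 2-fold and none had one lower by 2-fold. Over all loci 7.31% were lower and 7.77% higher by 2-fold or more. The median log2 difference of the antisense members was -0.77 where the sense gene was lower by 2-fold or more, 0.19 where it was within 2-fold and 0.98 where it was higher.

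The 7 pairs that were lower together were FOXC2, HMMR, SLCO4A1, VIM, SGO1, SERTAD4 and DPYD with their antisense transcripts. FOXC2, a forkhead factor of mesenchymal tissue, was at 12.0 FPKM in siNT and 4.46 in siPAX9. HMMR, which binds hyaluronan and the mitotic spindle, was at 13.6 and 3.11 FPKM. SLCO4A1, an organic anion transporter, was at 50.4 and 10.0 FPKM. VIM (vimentin, an intermediate filament protein) was at 301.0 and 53.5 FPKM, and VIM-AS1 at 3.72 and 1.59. SGO1 (shugoshin, which protects cohesin at centromeres) was at 3.03 and 1.01 FPKM, and SGO1-AS1 at 1.56 and 0.723. DPYD, the first enzyme of pyrimidine breakdown, was at 33.7 and 9.60 FPKM, and DPYD-AS1 at 2.04 and 0.916.

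The 4 pairs that were higher together were OVOL1, KCNK15, CFLAR and ZNF503 with their antisense transcripts. CFLAR, an inhibitor of caspase-8 activation, was at 21.2 FPKM in siNT and 50.9 in siPAX9, and CFLAR-AS1 at 0.369 and 1.33. ZNF503 was at 6.03 and 15.6 FPKM, and ZNF503-AS2 at 1.02 and 2.08. Among the higher members whose sense gene lay within 2-fold, LENG8-AS1 was at 2.24 and 5.41 FPKM beside LENG8 at 50.4 and 58.7. B4GALT1-AS1 was at 0.513 and 1.55 FPKM beside B4GALT1, a galactosyltransferase of the Golgi, at 147.0 and 101.0. In the pair that differed in opposite directions, LMO7-AS1 was at 2.38 and 0.610 FPKM, while LMO7, a protein of cell junctions and the actin cytoskeleton, was at 2.83 and 12.1 FPKM. DSG2-AS1 was lower while DSG2 (desmoglein-2, a desmosomal cadherin) was at 58.4 and 57.5 FPKM. PRKAG2-AS1 was at 2.76 and 0.869 FPKM while PRKAG2, a regulatory subunit of AMP-activated kinase, was at 47.7 and 91.2 FPKM. TP73-AS1 stayed at 5.34 and 5.10 FPKM, whereas TP73 (a p53 family factor) was at 4.24 and 1.07 FPKM.

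**Figure D5:**
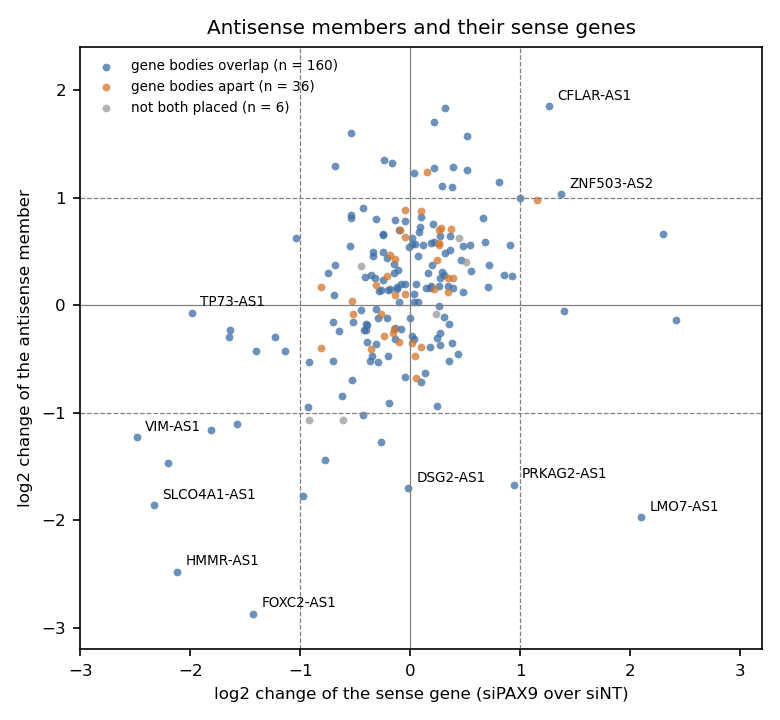
Each point is 1 of 202 pairs (OVOL1-AS1 and KCNK15-AS1, at or near 0 in siNT, are left out), with the log2 difference (siPAX9 over siNT) of the sense gene on the x axis and of the antisense member on the y axis, coloured by whether the annotated gene bodies overlap. Dashed lines mark 2-fold. HMMR-AS1, FOXC2-AS1, SLCO4A1-AS1 and VIM-AS1 lie at the lower left, and LMO7-AS1 lies alone past 2-fold on both axes at the lower right.

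Another pair of results concerns genes of ribosome assembly and DNA replication. GLTSCR2 (now NOP53, a nucleolar factor of large subunit assembly) was at 91.7 FPKM in siNT and 46.6 in siPAX9, and GLTSCR2-AS1 was lower with it. PCNA, the sliding clamp of DNA replication, was at 53.2 and 28.0 FPKM, and PCNA-AS1 at 20.8 and 9.89 FPKM.

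For the 101 LINC members, the nearest coding gene was expressed in 63, or 56 distinct symbols when repeated rows are counted once by their highest row. Of the 56, 34 were higher in siPAX9, and so were 23 of their neighbours. Both were higher in 19 cases and both lower in 18. Both were lower by 2-fold or more in 1 case and both higher by 2-fold or more in 1 case, and in none did both pass 2-fold in opposite directions. Members were also grouped by position, leaving out those that RefSeq classes as coding. Of the 60 that lie apart from coding genes, 16 (26.7%) were higher by 2-fold or more and 8 (13.3%) were lower. Of these 16, 10 were under 1 FPKM in siNT and so met the minimum through siPAX9 alone, and 2 were the Y rows of LINC00685 and LINC00106, whose X rows are members too. Without these second copies the count was 14 of 58 (24.1%). With the second copies kept, 42 were at 1 FPKM or more in both groups. Of these, 6 (14.3%) were higher by 2-fold or more, the 2 Y rows among them, and 3 (7.14%) were lower. The shares of all loci held to the same minimum were 4.09% and 5.84%. Of the 32 that start within 1 kb of a coding gene on the other strand, 3 were higher and 1 was lower by 2-fold or more. Each of these met the minimum through 1 group alone, and 0 of the 18 at 1 FPKM or more in both groups passed 2-fold. The shares for the 216 that overlap a coding gene on the opposite strand were 12.5% higher and 8.80% lower. Of those 216, 153 were at 1 FPKM or more in both groups, and 4.58% of the 153 were higher and 4.58% lower. Another 14 overlap a coding gene on the same strand, and 2 of them were higher and 0 lower by 2-fold or more. In the higher of siNT and siPAX9 the median level of these 14 was 4.36 FPKM, and those of the other groups were 2.09 to 2.61 FPKM. Of all loci, 20.1% were higher and 9.52% lower by 2-fold or more at 1 to 2 FPKM, and 12.9% and 9.69% at 2 to 5 FPKM. Of the members apart from coding genes, 6 of 20 were higher at 1 to 2 FPKM and 8 of 25 at 2 to 5 FPKM. The 8 include the 2 Y rows.

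Of 39 long noncoding RNAs listed for a described role, 35 had a locus and 18 were expressed. Of the 18, 4 were lower by 2-fold or more, 3 were higher and the median log2 difference was 0.14, beside 7.31% lower, 7.77% higher and a median of -0.06 over all loci. LINC00152, FOXP4-AS1 (4.51 and 1.54 FPKM), HIF1A-AS2 (2.27 and 1.08) and PCNA-AS1 were the lower ones. LINC01133 and GAS6-AS1 (0.869 and 2.58 FPKM) were the higher ones together with TP53TG1 (11.0 and 26.4 FPKM), a p53 target that is no member by name. The other 11 lay within 2-fold, between -0.92 (LINC00467, 4.63 and 2.45 FPKM) and 0.32 (LINC00963, 4.42 and 5.54 FPKM) on the log2 scale. OIP5-AS1, which binds miR-7 and is also called cyrano, was at 27.4 and 29.2 FPKM, MCM3AP-AS1 at 5.14 and 5.26, LINC00707 at 10.4 and 10.2, and ZEB1-AS1 at 1.21 and 1.37. CDKN2B-AS1 and LINC00261 were listed at 0 in both groups, and LINC01021 (PURPL) was at 0.0494 and 0.0492 FPKM. Of the 8 antisense loci of the HOX clusters that match the naming rule, HOXC-AS1 alone was expressed, at 3.90 FPKM in siNT and 2.37 in siPAX9.

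The genes that degrade or end noncoding transcripts were also set beside the members. Of 42 listed genes of the RNA exosome, its cofactors, the Integrator complex and the Pumilio proteins, 37 had loci, 38 in all. Their levels were lower in siPAX9 at 32 loci and higher at 6, with a median log2 difference of -0.33. Of the 38 loci, 31 were at 10 FPKM or more, a level at which 60.8% of all loci were lower and the median was -0.13. EXOSC8, a core subunit of the exosome, was lower by 2-fold or more (9.87 and 4.59 FPKM), and none was higher by 2-fold. EXOSC5, another core subunit, was at 36.0 and 21.8 FPKM, the exosome nuclease EXOSC10 at 19.3 and 16.1, and XRN2, the nuclease that ends transcription, at 38.5 and 27.4. The part of these genes in the levels of the members was not tested.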

How the data were processed

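PolyA+ RNA of 3 siNT and 3 siPAX9 samples was sequenced as single-end reads. Per the labels, the authors aligned reads to hg19 with Bowtie2 and quantified them with Cufflinks in Partek. The authors deposited 1 pooled FPKM per group at each of 41656 loci, with 0 other columns of per-sample values. The reads behind an FPKM and the strand setting are not given in the sources used here. The authors' columns of fold changes, test statistics, p-values and q-values were not used.

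Log2 ratios (siPAX9 over siNT) were computed from the deposited FPKM, with no pseudocount, by Python 3.11.15 with pandas 2.3.3, and the counting was tested on simulated data. With 1 value per group no test was run. Deposited starts count from 0 and were raised by 1. Members were placed with GENCODE release 44 on GRCh37 (336 of 352) and matched by symbol or synonym to RefSeq (351 of 352). Sense genes are those named before -AS. Spreadsheet dates such as that of SEPT4 were read back as symbols. The members and lists were chosen with earlier results of these data known. Named genes were the 10 largest decreases and increases, members listed at 0, the 10 highest levels, the 5 loci on each side of the limit, listed genes, their sense genes and PAX9. Pairs past 2-fold, DCN, DKK1 and other neighbours were added after their values were seen. A few loci that these rules would name are not reported here.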

Additional observations from a re-analysis of the deposited data

How the results depend on the processing

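No paired analysis was possible because the table holds 1 pooled value per group, and for the same reason no sample could be left out in turn. Of 48 values recomputed under 13 other settings, 7 could not move by construction, since all members have the status OK and a constant added to both groups keeps the direction. Of the other 41, 26 stayed within 1.5 times (counts) or 0.1 on the log2 scale (medians), and no median turned its sign. The setting without second pseudoautosomal copies was chosen after seeing the data. With a minimum FPKM of 0.5, 85 members were higher by 2-fold or more. With a minimum of 5, 7 were lower and 4 were higher by 2-fold or more, 41 of 88 were lower at all, the median log2 difference was 0.09, and 31 of 52 antisense members shared the direction of the sense gene. With members that reached 1 FPKM in both groups alone, 12 were lower (4.76%, all loci 5.84%) and 16 higher (6.35%, all loci 4.09%) by 2-fold or more. With 1 added to each FPKM the counts were 11 and 14. At a threshold of 1.5-fold they were 49 and 94, and at 4-fold 5 and 10. Among pairs whose loci in the table do not overlap, 36 of 58 shared the direction. The higher minima hold fewer loci, the added constant shrinks differences of low loci, and the fold threshold itself sets the counts at 1.5-fold and 4-fold. The unknown number of reads limits every level near 1 FPKM.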

Other observations

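Other noncoding loci of the same kind lay outside the naming rule. With a name in -AS without a digit or in -IT, 9 loci were expressed. HOXC13-AS, beside a gene of hair and nail differentiation, was at 1.28 FPKM in siNT and 8.30 in siPAX9, and HOXA10-AS was at 4.0 and 1.09 FPKM. The other 7 were within 2-fold, with log2 differences from -0.16 to 0.74. Of 26 expressed loci whose rows merge a LINC or antisense symbol with others, 2 were lower and 3 higher by 2-fold or more, and 21 were within 2-fold. The row of LRRC75A-AS1 with SNORD49A and SNORD49B was at 1333 and 628.0 FPKM, the row of ADAMTSL4-AS1 with MCL1 at 310.0 and 148.0 FPKM. The row of BTG1 with LINC01619 was at 21.1 and 51.1 FPKM, the row that holds OR2A1-AS1 at 0.767 and 1.93 FPKM, and the row of LINC01588 with LINC01599 at 0.527 and 1.06 FPKM. These values cannot be assigned to 1 of the merged genes. The symbols LINC00106, LINC00685 and ASMTL-AS1 are listed on both sex chromosomes in the pseudoautosomal region, so 3 member loci are second copies whose reads cannot be told apart. All 3 are among the members higher by 2-fold or more.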
